A study of Arabidopsis thaliana with 8 samples.

Results

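The root of the Arabidopsis mutant root meristemless1 (rml1) was compared with the shoot of the same mutant, with 1 root array set against 3 shoot arrays. These are 4 of the 8 arrays of the study, and the comparison covers all 29920 loci of the deposited table. The other 4 arrays, 1 root and 3 shoots of the Columbia-0 wild type, served to show which organ differences of rml1 were of another size than in a seedling with normal glutathione synthesis. All samples were total RNA of 7-day-old seedlings kept on vertical plates with 1 mM KNO3 and 0.5% sucrose at 20 °C under a 16 h photoperiod. The rml1 shoot samples were pools of 61, 65 and 108 shoots, called biological replicates in the labels, and the rml1 root sample was a pool of 234 roots. Each wild type shoot sample held 30 shoots and the wild type root sample 90 roots. Within each genotype the number of pooled roots equals the total of pooled shoots.

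In rml1 the lesion lies in GSH1 (AT4G23100), the gene of glutamate-cysteine ligase, which makes the precursor of the antioxidant thiol glutathione. Its embryo forms a root, but the cells of the primary root tip stop dividing after germination. Roots and shoots of a seedling are told apart by gene sets that belong to their tissues. Leaves express the photosystems, the Calvin cycle and the stomatal and cuticle genes, whereas roots express genes of the cap, the root hairs, the endodermis with its Casparian strip and suberin, and the ion carriers of uptake. The GSH1 transcript itself was at 8.80, 8.61 and 8.96 in the rml1 shoots and at 8.97 in the rml1 root, against 8.45, 8.19, 8.11 and 8.14 in the wild type shoots and root (log2 RMA values, the unit of every level given here). Because the lesion is a point mutation and the gene is still transcribed, these levels cannot serve as a check of the labelled genotypes.

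An organ difference is the root array minus the mean of the 3 shoot arrays of the same genotype, in log2 units. A locus was called higher or lower in the root when this difference was at least 1 log2 unit (2-fold) and the root array lay outside the range of the 3 shoot arrays. This is a description and not a test, since the root side has 1 array. The organ difference of rml1 minus that of the wild type, here the organ-by-genotype term, was tested with limma on all 8 arrays. In that fit the spread comes from the 6 shoot arrays, and the lone root arrays are assumed to vary like the shoots, which these arrays cannot check. In whole organs, fewer cells of a type and less RNA per cell cannot be told apart.

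The rml1 root remained far from the rml1 shoot across the transcriptome, with fewer loci past the 2-fold rule than between the wild type organs. Of 29920 loci, 3182 (10.6%) were higher and 2840 (9.49%) were lower in the rml1 root than in the rml1 shoots. In the wild type, 4129 (13.8%) were higher and 2983 (9.97%) lower in the root. The 3 rml1 shoot arrays had a median SD of 0.12 per locus, with a 95th percentile of 0.41, and spanned 1 log2 unit or more at 759 loci (2.54%). Of the 6022 rml1 loci past the 2-fold rule, 121 did not pass limma's adjusted p together with 1 log2 unit, by which 3119 loci (10.4%) were higher and 2782 (9.3%) lower. Correlations between arrays, over loci of the same probe set, were 0.992 to 0.994 among rml1 shoots, 0.889 to 0.895 between the rml1 root and the rml1 shoots, and 0.949 between both roots.

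Most organ differences of the wild type had the same direction in rml1. Of the 4129 loci higher in the wild type root, 2197 (53.2%) were also higher in the rml1 root, 32 were lower and 1900 were neither. Their median organ difference was 1.71 in the wild type and 1.09 in rml1. Of the 2983 loci lower in the wild type root, 2140 (71.7%) were also lower in the rml1 root and 23 were higher, with medians of -2.07 and -1.62. Read the other way, 69.0% of the loci higher and 75.4% of the loci lower in the rml1 root had the same call in the wild type. These loci were chosen on one genotype and read in the other, so smaller values in the second can come from the choice itself. Across all 29920 loci, the organ differences of both genotypes correlated at r = 0.81, with a slope of 0.69 of rml1 on the wild type. The SDs of these differences across loci were 1.11 in rml1 and 1.3 in the wild type. A least-squares slope is lowered by any r under 1, so 0.69 is not the relative size of the rml1 differences. No p is given, since loci are not replicates.

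The organ-by-genotype term passed the test at 4195 loci: it was higher in rml1 at 1851 (6.19%) and lower at 2344 (7.83%). For a gene that is high in roots, a negative term means a smaller organ difference in rml1. For a gene that is high in shoots, a positive term means the same. The median term over all loci was 0.01. Counts of list members below are to be read beside the shares over all loci. Those are 10.6% higher and 9.49% lower in the rml1 root, and 13.8% and 9.97% in the wild type root. For the term past the test they are 6.19% positive and 7.83% negative.

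**Figure D1:**
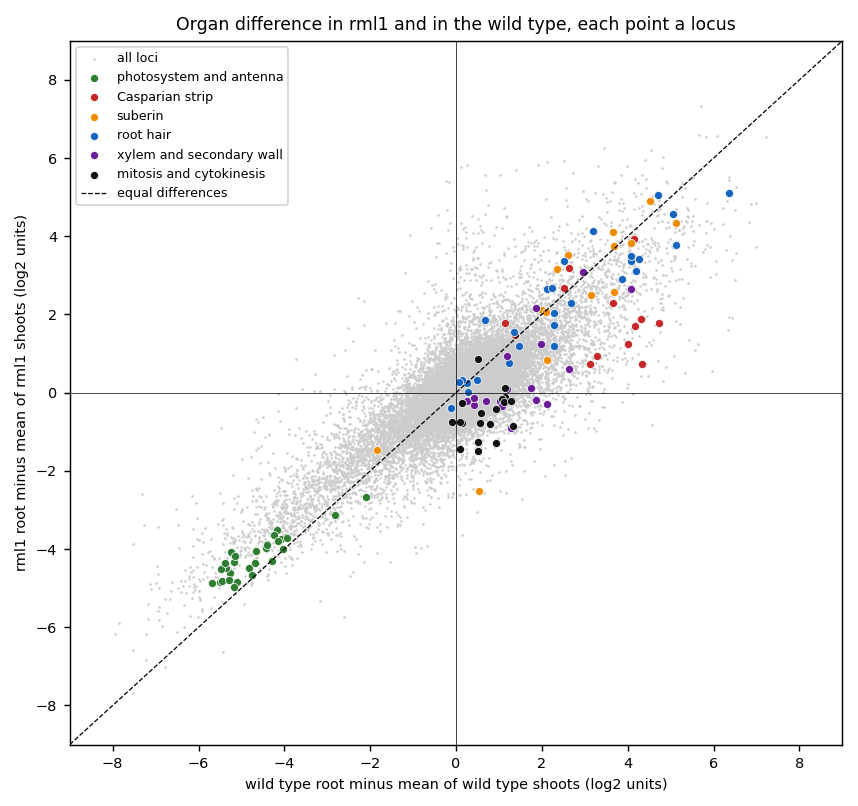
Each grey point is 1 of 29920 loci, with the wild type organ difference (log2 units) on the horizontal axis and the rml1 organ difference on the vertical axis; coloured points are the members of 6 gene lists and the dashed line marks equal differences. Photosystem genes lie low in both genotypes, suberin and root hair genes mostly follow the line, and Casparian strip, secondary wall and mitosis genes mostly lie below it.

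Organ markers placed each array with its label. All 9 measured shoot markers, among them the chlorophyll-binding protein LHCB2.1, the stomatal regulators SPCH and FAMA and the leaf polarity genes FIL and YAB3, were lower in the rml1 root, and 8 of 9 were lower in the wild type root. Of 13 root markers, 7 were higher in the rml1 root and 9 in the wild type root. The median level of the root markers was 3.22 to 3.88 in the rml1 shoots, 5.51 in the rml1 root and 7.87 in the wild type root. The median level of the shoot markers was 6.39 to 6.66 in the rml1 shoots, 3.91 in the rml1 root and 3.67 in the wild type root. Their summed level, taken on the linear scale and returned to log2, was 14.11 to 14.12 in the rml1 shoots, 11.42 in the rml1 root and 10.16 in the wild type root, with RBCS1A (10.99 and 9.39 in the roots) as its largest part. Like RBCS1A, the shoot markers LHCB2.1, FIL, YAB3, FAMA, TMM and ATML1 were higher in the rml1 root than in the wild type root. SPCH and STM went the other way, at 3.19 and 3.29 in the rml1 root and at 3.26 and 3.64 in the wild type root. The summed level of the root markers was 11.86 to 11.94, 12.38 and 13.19 in the same order, with BGLU23 as its largest part. None of the markers of either organ lay below the lower quartile of the rml1 root array. In the shoot arrays some root markers did: 3, 3 and 2 in rml1 and 3, 3 and 1 in the wild type. The part of these marker levels in the organ-by-genotype terms below was not tested.

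The transcripts with the largest excess in the rml1 root were mostly also high in the wild type root. AT5G40590 led, at 3.35, 3.54 and 2.91 in the rml1 shoots and 10.61 in the rml1 root, a 162-fold difference. GSTU22, a tau-class glutathione S-transferase, was at 3.96, 3.51 and 2.68 in the shoots and 9.96 in the root (95.6-fold), against 9.97 in the wild type root. AT2G39530, AT3G01190 and AT2G15220 followed with organ differences of 6.56, 6.54 and 6.53. The alpha-dioxygenase gene DOX1, whose product oxidises fatty acids, was at 5.99, 4.73 and 3.77 in the shoots and at 11.08 in the root. FLS5, a member of the flavonol synthase family, differed by 6.03 and GLP4, a germin-like protein, by 5.96. For 9 of these 12 loci the term did not pass the test, although those of DOX1 (3.38) and GLP4 (1.94) passed without rml1 shoot replicate 1 (adjusted p = 0.0265 and 0.0422). The 3 others were AT1G30700 (5.92 in rml1 and 2.52 in the wild type), AT5G39580 (5.83 and 0.25) and CYP82C2, a cytochrome P450 of indole compound synthesis (5.90 and 2.11). Several of the 12 varied among the shoot pools: DOX1 spanned 2.22 log2 units and FLS5 2.01, with the lowest value in replicate 3, and the root array stood above all shoot arrays for each of the 12.

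The loci with the largest deficits in the rml1 root were also low in the wild type root. CA1, the chloroplast carbonic anhydrase, was at 11.75, 11.73 and 11.56 in the shoots and 4.01 in the root, a 204-fold difference, with -7.67 in rml1 and -7.52 in the wild type. LHCB2.3, a light-harvesting protein of photosystem II, differed by -7.01 and -6.79. NdhM, a subunit of the chloroplast NADH dehydrogenase-like complex, differed by -6.13 and TGG1, a myrosinase that breaks down glucosinolates, by -5.98. AT4G38860, a small auxin-up RNA gene (SAUR16), differed by -6.0. For CA2, a second carbonic anhydrase, GASA6, a gibberellin-stimulated gene, and FBA1, the plastid fructose-bisphosphate aldolase, the term was positive and passed the test, and for AT5G57760 it was negative (-6.64 in rml1, -5.43 in the wild type). FBA1 was at 11.29, 11.19 and 11.21 in the rml1 shoots and 5.42 in the rml1 root, against 11.80, 11.66, 11.65 and 4.79 in the wild type. Shoot and root arrays were far apart for each of these loci in both genotypes.

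**Figure D2:**
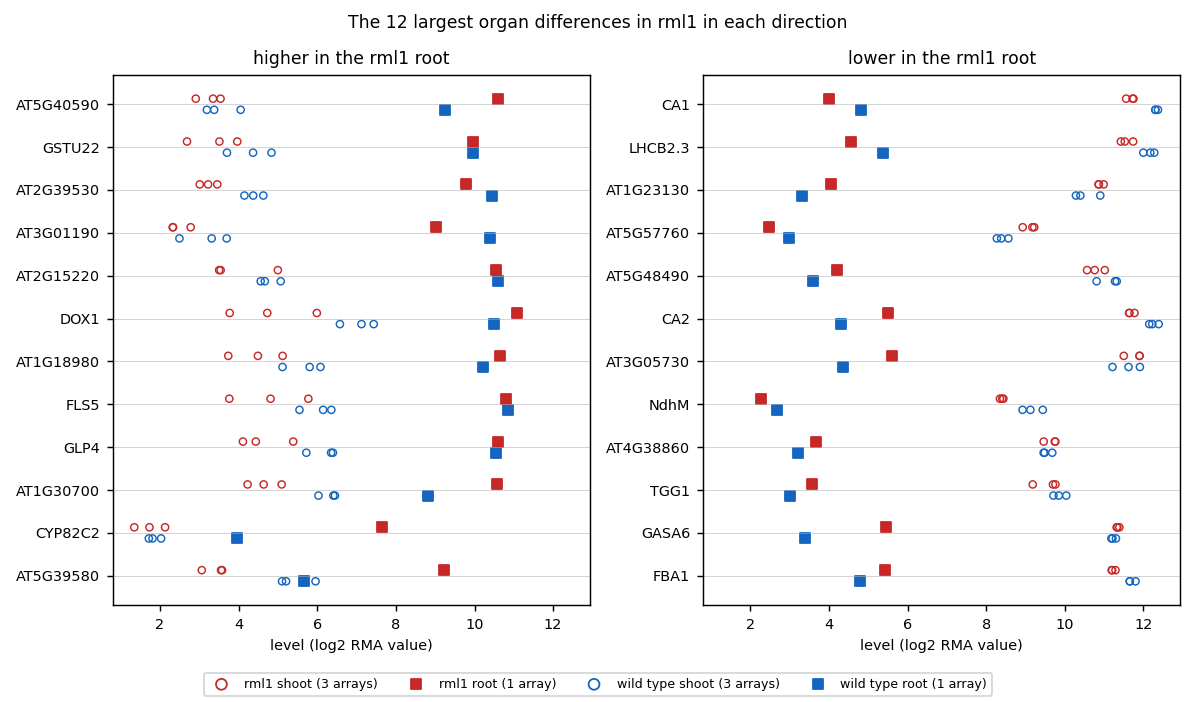
Levels (log2 RMA value) of the 12 loci with the largest rml1 organ difference in each direction, with open circles for the 3 shoot arrays and squares for the root array of each genotype (red rml1, blue wild type). AT5G40590 and CA1 lead, with organ differences of 7.34 and -7.67, and at AT5G39580 and CYP82C2 the rml1 root stands well above the wild type root.

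Photosynthesis genes were low in the rml1 root, and many of them less so than in the wild type root. All 30 measured genes of the photosystems and their antennae were lower in the root in both genotypes (medians -4.24 in rml1 and -4.72 in the wild type, with 0.03 and 0.02 over all loci). In the Calvin cycle, 14 of 15 measured genes were lower in the rml1 root and 15 of 15 in the wild type root, with medians of -4.08 and -4.84. The term was positive and passed the test for 13 photosystem genes and 10 Calvin cycle genes, and 0 negative terms passed. With any of the 6 shoot arrays left out, 7 of these 13 photosystem calls were made, and 9 or 10 of the Calvin cycle calls. The test takes its spread from shoot arrays, where many of these genes lay near the top of the scale and varied little. LHCA1, for example, was at 12.61, 12.62 and 12.59 in the rml1 shoots (SD 0.015), but at 7.99 and 7.46 in the rml1 and wild type roots. Whether root arrays vary as little at such levels cannot be checked here, and leaving out shoot arrays does not test it.

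The Calvin cycle enzymes gave the larger terms. SBPASE, which dephosphorylates sedoheptulose bisphosphate, was at 10.92, 10.88 and 10.75 in the rml1 shoots and 6.0 in the rml1 root, against 11.45, 11.35, 11.32 and 4.76 in the wild type, a term of 1.77 (SE 0.18, limma adjusted p = 0.00182). Both organs differed here: the rml1 shoots were below the wild type shoots and the rml1 root above the wild type root. RBCS1A, a small subunit of Rubisco, was at 13.29, 13.30 and 13.31 in the rml1 shoots, the highest value on each of these arrays, and at 10.99 in the rml1 root against 9.39 in the wild type root (term 1.61, SE 0.16). PRK, the phosphoribulokinase, had a term of 1.49 (SE 0.19) and HCEF1, the plastid fructose bisphosphatase, 1.59 (SE 0.17). PSBS, the protein of photosystem II that senses excess light, had the largest photosystem term, 1.15 (SE 0.17, adjusted p = 0.0061), with organ differences of -4.09 and -5.24. TKL1, a transketolase, was the Calvin cycle gene not past the 2-fold rule in rml1 (-0.80, and -1.24 in the wild type).

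Leaf development genes were shoot-high in part. Of 23 genes of leaf growth and polarity, 13 were lower and 1 was higher in the rml1 root, against 11 and 1 in the wild type, with medians of -1.23 and -0.78. YAB5, a YABBY factor of the lower leaf face, was at 7.36, 7.31 and 7.52 in the shoots and 3.45 in the root, YAB3 at 7.89, 7.74, 7.87 and 3.91, and FIL at 8.42, 8.13, 8.41 and 4.75. The leaf margin and growth regulators TCP2, TCP10 and TCP24 differed by -2.62, -2.88 and -3.15 in rml1 and by -2.57, -3.42 and -3.13 in the wild type. GIF1, a coactivator of growth-regulating factors, was the member higher in the rml1 root (6.06, 6.04 and 5.72 in the shoots, 7.14 in the root). The term passed for 3 members, YAB5, FIL and TCP4, each positive. The number of positive calls was 1 without rml1 shoot replicate 1 or 3 or wild type shoot replicate 2 or 3. It was 2 without rml1 shoot replicate 2. Negative calls, absent with all arrays, numbered 2 without wild type shoot replicate 1 and 1 without wild type shoot replicate 3. Over the list, 13 terms were positive and 10 negative.

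Stomatal genes were shoot-high in rml1, with a median near that of the wild type. Of 18 stomatal lineage and guard cell genes, 14 were lower in the rml1 root and 13 in the wild type root, with medians of -1.95 and -1.88. EPFL9, the peptide that promotes stomatal formation, was at 7.22, 7.34 and 6.92 in the rml1 shoots and 2.30 in the rml1 root, an organ difference of -4.86 against -4.76. TMM, a receptor-like protein of stomatal spacing, differed by -3.08 and -2.82, and MYB60, a guard cell factor, by -2.94 and -2.93. MYB88, which limits divisions late in the stomatal lineage and is also known from roots, was the 1 member with a term past the test. It was at 2.46, 2.29 and 2.63 in the rml1 shoots and 2.45 in the rml1 root, within the shoot range, and at 4.17 in the wild type root (term -1.68, SE 0.22, adjusted p = 0.00402).

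Many cuticle genes had a smaller organ difference in rml1. Of 20 genes of the shoot epidermis, wax and cutin, 13 were lower in the root in each genotype, with medians of -1.58 for rml1 and -2.49 for the wild type. The terms past the test were 10 positive and 3 negative, and in the fits without 1 shoot array 9 positive and 2 or 3 negative. KCS6, the condensing enzyme that elongates wax precursors, was at 9.28, 8.92 and 9.47 in the rml1 shoots and 6.73 in the rml1 root, against 9.63, 9.10, 9.06 and 4.51 in the wild type (term 2.25, SE 0.40, adjusted p = 0.0115). The wax exporters ABCG12 and ABCG11 were at 5.53 and 5.63 in the rml1 root, against 3.75 and 3.91 in the wild type root, with terms of 2.24 (SE 0.21) and 1.77 (SE 0.19). For CER1, a gene of alkane formation, the shoots also differed: 4.30, 3.86 and 4.41 in rml1 against 5.84, 5.4 and 5.28 in the wild type. By contrast the epidermal identity factors ATML1 and PDF2 differed by -2.21 and -2.15 in rml1 and by -2.76 and -2.43 in the wild type, and their terms did not pass. CER4, a fatty acyl reductase of primary alcohol synthesis, went the other way. It was at 2.60 in the rml1 root, near the shoots at 2.26, 2.49 and 2.5, and at 5.29 in the wild type root (term -2.47, SE 0.30, adjusted p = 0.00325). GPAT6, a cutin acyltransferase, was higher in the root of both genotypes, by 3.26 and 2.52, and its term (0.74) did not pass in any fit that left out 1 shoot array (adjusted p 0.0605 to 0.0951).

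**Figure D3:**
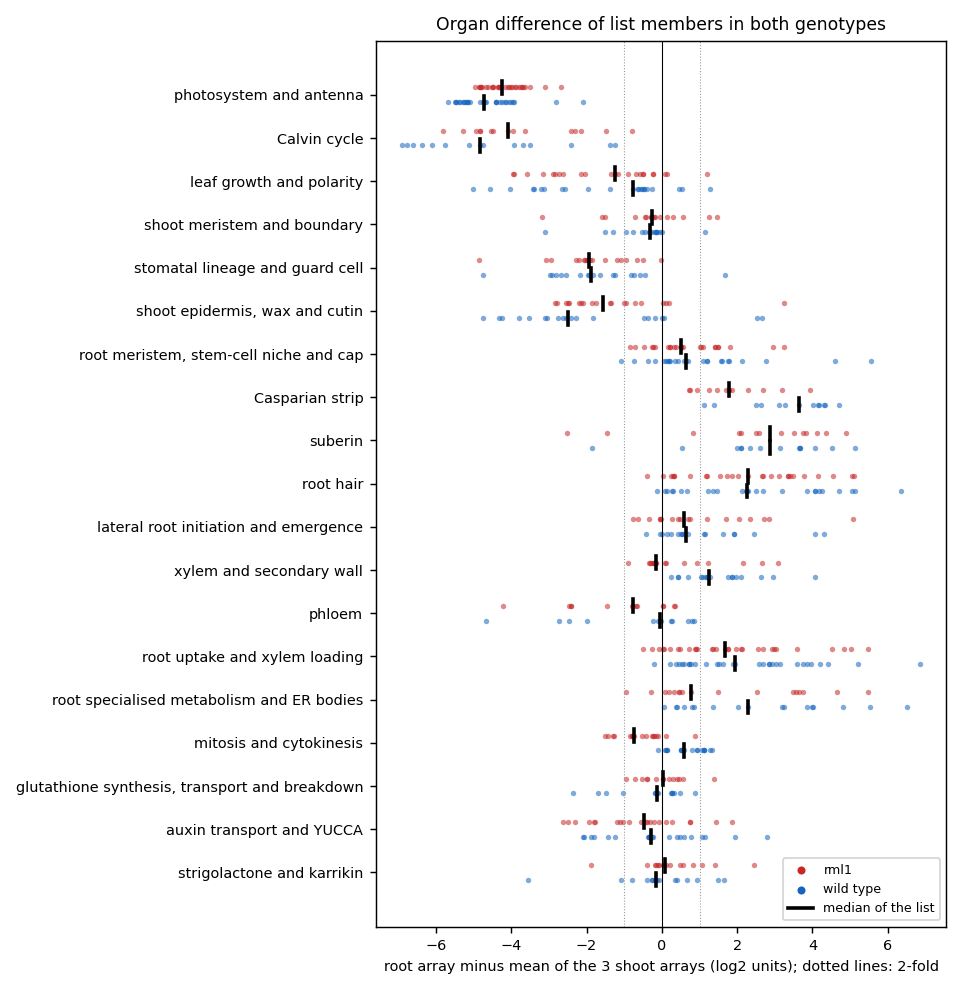
Organ difference (root array minus the mean of the 3 shoot arrays, log2 units) of each measured member of the 19 gene lists in rml1 (red) and the wild type (blue), with black bars at the median of each list and dotted lines at 2-fold. Medians sit close together for suberin (2.88 in both genotypes) and root hairs (2.30 and 2.27), and apart for the Casparian strip (1.77 and 3.65), xylem (-0.14 and 1.24) and mitosis (-0.75 and 0.58).

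Among shoot meristem genes, members of the KNOX class stood out. These homeobox factors keep meristem cells undifferentiated. Of 17 genes of the shoot meristem and organ boundaries, 3 were lower and 2 higher in the rml1 root, and 3 and 1 in the wild type root. The rml1 counts are not far from the shares of all loci, 9.49% lower and 10.6% higher. KNAT2 was at 3.59, 3.94 and 3.86 in the rml1 shoots and 5.25 in the rml1 root, but at 3.63, 3.67, 3.28 and 3.01 in the wild type (term 1.97, SE 0.29, adjusted p = 0.00634). KNAT1 was at 6.86, 7.05 and 7.13 in the rml1 shoots and 7.31 in the rml1 root, against 5.08 in the wild type root (term 1.82, SE 0.23, adjusted p = 0.00366). KNAT6 was higher in the root of both genotypes, by 1.25 and 1.14. STM, the KNOX factor of the shoot meristem proper, was lower in the rml1 root by 1.59 and in the wild type root by 0.95, and its term did not pass (adjusted p = 0.0991). ATH1 and BLH9, BELL-type partners of KNOX proteins, differed by -3.19 and -1.52. WUS and CLV3, which mark the stem cells of the shoot apex and their organizer, stayed between 1.71 and 3.18 on all 8 arrays. CLV3 lay below the lower quartile of each array.

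Root meristem and root cap genes were root-high in part, in both genotypes. Of 25 genes, 10 were higher in the rml1 root and 11 in the wild type root, with medians of 0.51 and 0.65. Over all loci the shares higher were 10.6% and 13.8%. In the list 0 were lower in the rml1 root and 1 in the wild type root, against 9.49% and 9.97% of all loci. The term was negative for 19 and positive for 6, with a median of -0.27, and 1 of each passed the test. The stem-cell niche genes PLT1, PLT2 and WOX5 differed by 0.32, 0.21 and 0.36 in rml1 and by 0.59, 0.22 and 0.18 in the wild type. Thus neither pooled root separated them from its shoots by 2-fold. Their levels, 1.97 to 3.40, lay below the median of each array, which limits what these differences can show. PLT3, a related AP2 factor, was higher in the rml1 root (3.86, 3.81 and 3.95 in the shoots, 5.68 in the root). PLT7, of the same family, had the positive term past the test (1.21, SE 0.28, adjusted p = 0.0315), which was lost in 3 of 6 fits without 1 shoot array. MGP and NUC, zinc-finger genes downstream of SHR and SCR, differed by 1.42 and 1.49 in rml1 and by 2.13 and 1.79 in the wild type. The root cap factors BRN1 and BRN2 were at 3.5 and 3.35 in the rml1 root, against 4.88 and 3.68 in the wild type root, with shoots between 1.67 and 2.46. TMO7, a small factor that moves to the root founder cell of the embryo, had the largest organ difference of the list, 3.24 in rml1 and 5.56 in the wild type. Its term of -2.31 did not pass (adjusted p = 0.0743) and passed without wild type shoot replicate 2 (adjusted p = 0.0381). UPB1, a regulator of the exit from division through peroxidases, was at 2.17, 2.04 and 2.48 in the rml1 shoots, 5.17 in the rml1 root and 6.99 in the wild type root (term -1.65, SE 0.34, adjusted p = 0.0192). The number of negative terms past the test in this list was 1, and it was 2 and 3 without wild type shoot replicates 2 and 3.

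Mitotic genes separated the rml1 root from the wild type root. These genes act from the entry into mitosis to the building of the new cell wall. Of 19, 0 were higher and 4 were lower in the rml1 root, whereas 6 were higher and 0 lower in the wild type root, with medians of -0.75 and 0.58. The term was negative and passed for 13 of 19, and for 13 in each fit that left out 1 shoot array. KNOLLE, the syntaxin of the cell plate, was at 6.09, 6.43 and 5.98 in the rml1 shoots and 4.66 in the rml1 root, but at 6.11, 6.33, 6.50 and 6.83 in the wild type (term -2.02, SE 0.31, adjusted p = 0.00689). The rml1 root lay below its shoots and the wild type root above its shoots. CDKB2;1, a plant-specific kinase of the entry into mitosis, was at 5.73, 6.0 and 6.06 in the rml1 shoots and 4.64 in the root, against 6.68 in the wild type root (term -2.22, SE 0.29). The B-type cyclin CYCB1;4 was at 4.28 in the rml1 root and 6.36 in the wild type root, with shoots of both genotypes between 4.59 and 5.35. CYCA1;1 and the Aurora kinase AUR1 had terms of -1.78 (SE 0.17) and -1.60 (SE 0.19). CYCB1;1, a cyclin that is also known to respond to DNA damage, differed from the others: it was at 4.76, 5.01 and 4.97 in the rml1 shoots and 5.79 in the rml1 root, above the 4.96 of the wild type root, and its term of 0.36 did not pass.

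Root hair genes remained root-high in rml1. Of 27, 20 were higher in the root in each genotype and 0 were lower, with medians of 2.30 and 2.27. RHD6 and RSL4, factors that start root hairs and drive their growth, were at 6.34 and 5.16 in the rml1 root, against 5.57 and 4.81 in the wild type root, with shoots of both genotypes between 2.05 and 2.89. RHS13, a gene named for its activity in root hairs, was at 4.46, 5.38 and 3.48 in the rml1 shoots and 9.54 in the root (34.2-fold). The xyloglucan-modifying enzyme XTH14 was at 3.72, 4.50 and 2.76 in the shoots and 8.72 in the root, and the expansin EXPA7 at 3.73, 4.18, 3.22 and 7.12. For these 3 genes replicate 2 was the highest and replicate 3 the lowest shoot array, and the root array stood clear of all of them. COBL9, which is needed for hair elongation, was the root hair marker with a term past the test: 4.23 in the rml1 root and 5.52 in the wild type root (term -1.07, SE 0.21, adjusted p = 0.0177). Terms past the test were 1 positive and 2 negative, and without rml1 shoot replicate 1 or 2 there was 1 negative and without rml1 shoot replicate 3 there were 3. The positive call, RHS15, was made in fits without any 1 rml1 shoot array and without wild type shoot replicate 1, but not without wild type shoot replicate 2 or 3.

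Most Casparian strip genes were root-high in rml1. The endodermis seals its walls with the lignified Casparian strip, laid down on a platform of CASP proteins. Of 13 Casparian strip genes, 10 were higher in the rml1 root and 13 in the wild type root, with medians of 1.77 and 3.65, and the term was negative and passed for 8, in the fits without 1 shoot array too. CASP1 was at 6.22, 6.41 and 6.46 in the rml1 shoots and 8.24 in the rml1 root, against 10.10 in the wild type root (term -2.44, SE 0.25, adjusted p = 0.00202). CASP5 was at 3.39, 3.82 and 3.73 in the rml1 shoots and 4.37 in the rml1 root, against 7.82 in the wild type root, with a term of -3.61 (SE 0.25, adjusted p = 0.000743). CASP2 and CASP4 had terms of -2.35 and -2.38. The same held for ESB1, a dirigent-type protein of the strip, and PER64, its lignin-forming peroxidase: they were at 8.01 and 6.96 in the rml1 root, against 9.84 and 9.0 in the wild type root.

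The other Casparian strip genes gave terms of both signs. AT1G61590 was at 6.50 in the rml1 root and 7.92 in the wild type root, with organ differences of 2.28 and 3.65 (term -1.37, SE 0.19, adjusted p = 0.00532). MYB36, the factor that switches on the CASP genes, was at 3.79, 4.54 and 4.06 in the rml1 shoots and 6.82 in the rml1 root, against 3.60, 3.15, 3.58 and 5.95 in the wild type, with organ differences of 2.69 and 2.5. GSO1, a receptor kinase of barrier integrity, differed by 1.47 and 1.37. The list members AT4G34600 and AT2G16385 differed by 3.93 and 3.18 in rml1 and by 4.14 and 2.62 in the wild type. The terms of MYB36, GSO1, AT4G34600 and AT2G16385 did not pass the test (adjusted p from 0.76 to 0.84). RBOHF, the NADPH oxidase of the strip, had a positive term of 0.66 (adjusted p = 0.0495) that did not pass in any fit without 1 shoot array.

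Most suberin genes, which build the later waxy coat of the endodermis, were root-high in both genotypes. Of 14, 11 were higher and 2 lower in the rml1 root, and 12 and 1 in the wild type root, with a median of 2.88 in both. CYP86A1, a fatty acid hydroxylase, was at 3.52, 3.91 and 4.2 in the rml1 shoots and 8.77 in the rml1 root, against 3.58, 3.9, 4.29 and 8.45 in the wild type. GPAT5, the acyltransferase of suberin, was at 3.52, 3.74, 3.59 and 7.73 in rml1, and ASFT, which adds ferulate, at 4.46, 4.66, 4.57 and 8.38. In each of these 3 genes the root array stood over 3.5 log2 units above the mean of the shoots of its genotype. KCS20, a fatty acid elongase, was lower in both roots, by 1.47 and 1.85. FAR1, a fatty acyl reductase, was lower in the rml1 root alone. It was at 9.03, 8.64 and 9.09 in the rml1 shoots and 6.40 in the rml1 root, but at 5.41, 5.48, 4.85 and 5.77 in the wild type (term -3.05, SE 0.40, adjusted p = 0.00402), so the groups differed in the shoot and lay close in the root. FAR4, a related reductase, had a term of -1.09 (SE 0.22, adjusted p = 0.0188). GPAT7 had a positive term of 0.91 (adjusted p = 0.045) that did not pass in any fit without 1 shoot array.

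**Figure D4:**
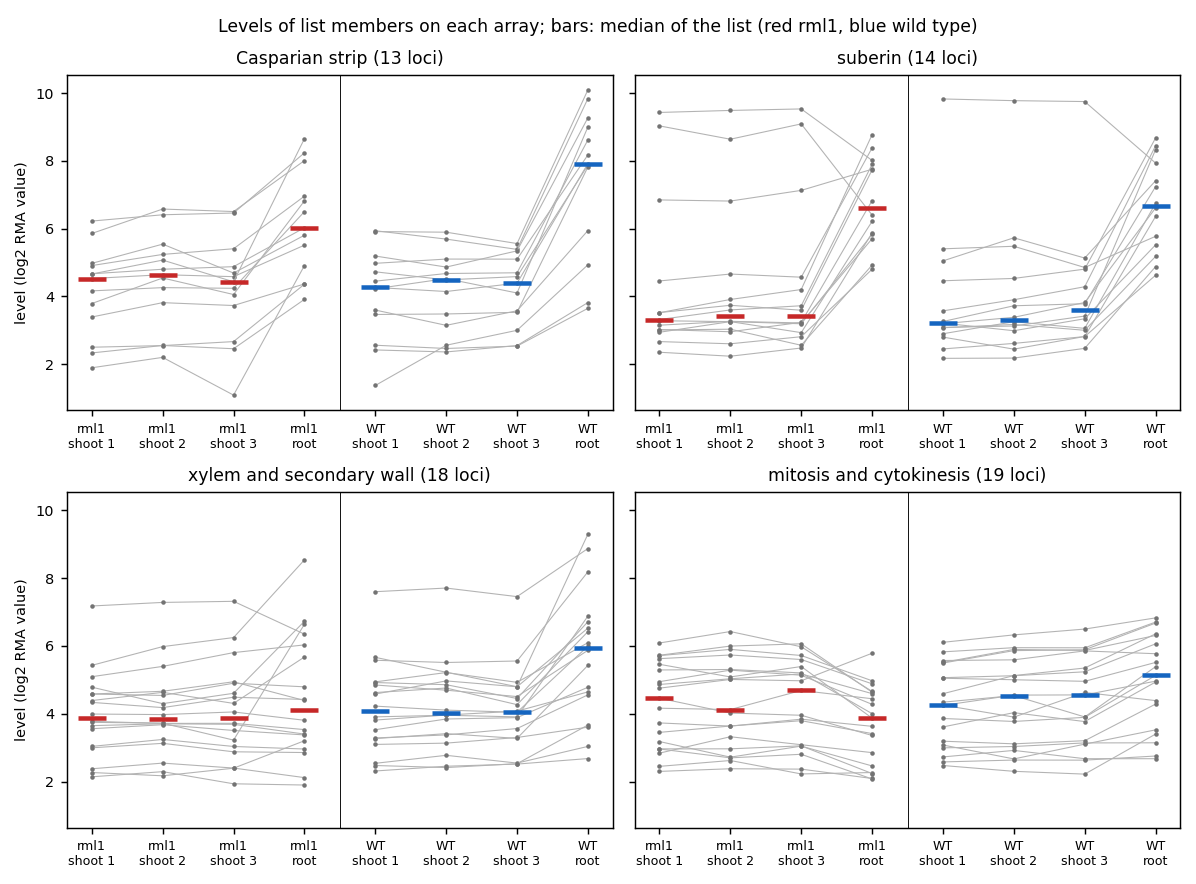
Level (log2 RMA value) of each member of 4 gene lists on the 8 arrays, with grey lines joining the values of a locus within a genotype and bars at the list median (red rml1, blue wild type). Of 14 suberin genes 11 are higher in the rml1 root and 12 in the wild type root, the median of the Casparian strip genes climbs by less in rml1, and of 19 mitosis genes 4 are lower in the rml1 root by the 2-fold rule, KNOLLE for example at 4.66 against 5.98 to 6.43.

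Genes of water-conducting cells had a median organ difference near 0 in rml1. Of 18 genes of xylem and secondary walls, 4 were higher in the rml1 root and 14 in the wild type root, with medians of -0.14 and 1.24. The term was negative and passed for 10, and for 8 to 10 in the fits without 1 shoot array. IRX9, a xylan synthesis enzyme, was at 3.65, 3.70 and 3.69 in the rml1 shoots and 3.40 in the rml1 root, against 5.43 in the wild type root (term -2.39, SE 0.17, adjusted p = 0.00077). The cysteine protease XCP2 of dying xylem cells was at 7.18, 7.28, 7.32 and 6.35 in rml1 and at 8.88 in the wild type root (term -2.20, SE 0.20). CESA4 and CESA8, cellulose synthases of the secondary wall, had terms of -1.29 and -0.90, the laccases LAC4 and LAC11 of -1.41 and -1.62, and MYB46, a master switch of secondary wall formation, of -1.23. FRA8, BFN1, MC9 and PRX72 were the 4 members higher in the rml1 root. FRA8, a glucuronoxylan enzyme, was at 6.64 in the rml1 root and 6.88 in the wild type root, and PRX72, a peroxidase, at 8.54 and 9.30.

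Phloem genes were shoot-high in part. Of 13, 0 were higher and 5 lower in the rml1 root, and 0 and 4 in the wild type root. The list medians were -0.77 in rml1 and -0.06 in the wild type. Over all loci, 10.6% were higher and 9.49% lower in the rml1 root, and 13.8% and 9.97% in the wild type root. In a list of 13, 0 higher is near these shares. The sugar carriers SWEET11 and SUC2 differed by -4.23 and -2.42 in rml1 and by -4.67 and -2.48 in the wild type. BAM3, a receptor kinase of early phloem, was at 4.26, 4.29 and 4.24 in the rml1 shoots and 3.49 in the rml1 root, against 3.63, 3.63, 3.61 and 4.43 in the wild type (term -1.58, SE 0.16, adjusted p = 0.00173). SEOR1, a filament protein of sieve elements, had a term of -1.35 (SE 0.18), with 3.46 in the rml1 root and 4.79 in the wild type root. FTIP1 was the other negative call and was lost in 3 of 6 fits without 1 shoot array.

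Lateral root genes were divided. Of 18, 7 were higher in the rml1 root and 8 in the wild type root, with medians of 0.60 and 0.63. EXPA17, an expansin of the tissue that overlies a lateral root, was at 4.04, 3.71 and 3.60 in the rml1 shoots and 8.85 in the rml1 root (33.6-fold), against 7.88 in the wild type root. LBD16, which starts lateral root founder divisions, was at 4.04, 4.44, 4.24 and 7.10 in rml1 and at 5.33 in the wild type root (term 1.23, SE 0.24, adjusted p = 0.0167). LRP1, a gene of lateral root primordia, had a term of 1.19 (SE 0.19). IDA, the peptide that separates cells over an emerging root, was at 4.03, 4.08 and 3.91 in the rml1 shoots and 6.05 in the rml1 root, against 4.03, 4.12, 3.98 and 4.04 in the wild type, so the rml1 root alone lay outside the other 7 arrays (term 2.05, SE 0.18, adjusted p = 0.0012). Its receptors HAE and HSL2 were not higher in the rml1 root, at 2.72 and 2.01. In the other direction, the auxin influx carrier LAX3 was at 6.95, 6.70, 6.99 and 6.53 in rml1 and at 8.45 in the wild type root (term -2.26, SE 0.23, adjusted p = 0.00176). The auxin repressor IAA28 differed by 2.35 and 4.07 (term -1.73, SE 0.19).

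Carriers of ion uptake were root-high in rml1, with individual exceptions in both directions. Of 31, 19 were higher in the rml1 root and 21 in the wild type root, with medians of 1.68 and 1.94. The nitrate transporter NRT2.1 was at 7.55, 6.90 and 5.34 in the rml1 shoots and 12.07 in the rml1 root (44.3-fold), close to 12.04 in the wild type root. The sulfate transporter SULTR1;2 was at 6.13, 5.53, 5.65 and 10.80 in rml1, and at 10.15 in the wild type root. NPF7.2, a nitrate transporter that takes nitrate back from the xylem, had the largest term of the list. It was at 4.84, 4.77 and 4.70 in the rml1 shoots and 9.28 in the rml1 root, against 3.93, 4.53, 4.51 and 4.70 in the wild type (term 4.14, SE 0.34, adjusted p = 0.00101). AMT1;5, an ammonium transporter, had a term of 1.89 (SE 0.35).

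The term was negative and passed the test for 9 uptake genes, and for 9 or 10 without 1 shoot array. TIP2;3, a vacuolar aquaporin, was at 4.04, 3.88, 3.65 and 5.61 in rml1 and at 9.69 in the wild type root (term -3.47, SE 0.48, adjusted p = 0.00512). The phosphate transporter PHT1;2 was at 2.33 in the rml1 root and 5.51 in the wild type root (term -3.23, SE 0.52). SKOR, the potassium channel that loads the xylem, was at 2.27, 2.14, 2.12 and 1.93 in rml1 and at 4.01 in the wild type root (term -2.19, SE 0.17). The iron carrier IRT1 and the ferric reductase FRO2 remained root-high in rml1, by 4.83 and 1.33, but with smaller differences than in the wild type, 6.87 and 3.03. In these genes the rml1 root lay below the wild type root, while the shoots of both genotypes lay closer to each other.

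Some genes of root-specific metabolism had smaller organ differences in rml1, while others were near the wild type. Of 17, 8 were higher in the rml1 root and 11 in the wild type root, with medians of 0.76 and 2.29, and the term was negative and passed the test for 7. The thalianol genes THAS1, CYP708A2 and CYP705A5, which act in 1 triterpene pathway, were at 5.89, 6.29 and 6.31 in the rml1 root, against 5.63, 6.70 and 6.68 in the wild type root. F6'H1, the enzyme of scopoletin synthesis, was at 3.81, 3.16, 3.44 and 8.95 in rml1 and at 9.40 in the wild type root. CYP82C4, which acts on coumarins under iron shortage, was at 1.56, 1.75, 1.92 and 5.31 in rml1 and at 8.53 in the wild type root (term -2.95, SE 0.25, adjusted p = 0.00114). Genes linked to ER bodies, a store of beta-glucosidases, were lower in the rml1 root than in the wild type root: BGLU21 was at 4.93 and 7.58, BGLU22 at 3.65 and 6.16, and the jacalin-related JAL30 at 10.71 and 11.81. All 3 terms passed the test. BGLU23, the main ER body enzyme, was at 12.15 and 12.59 and its term did not pass (adjusted p = 0.0733).

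In the glutathione list, 1 of 14 genes was higher in the rml1 root and 0 were lower, against 0 and 4 in the wild type root. Over all loci, 10.6% were higher and 9.49% lower in the rml1 root, and 13.8% and 9.97% in the wild type root. In a list of 14 the rml1 counts are near these shares. GR1, the cytosolic glutathione reductase, was at 8.78, 8.38 and 8.95 in the rml1 shoots and 10.11 in the rml1 root, against 8.15, 8.11, 8.11 and 8.61 in the wild type. Its term of 0.91 did not pass (adjusted p = 0.0914) and passed after quantile normalization of the 8 arrays (adjusted p = 0.0433). The plastid reductase GR differed by -0.95 in rml1 and by -2.37 in the wild type (term 1.41, SE 0.21, adjusted p = 0.00676). GGT1, an enzyme of glutathione breakdown outside the cell, had a term of 1.29 (SE 0.30, adjusted p = 0.0325), lost without rml1 shoot replicate 1 or wild type shoot replicate 2. GGCT2;1, which breaks glutathione down in the cytosol, was at 5.95, 6.98, 5.43 and 6.67 in rml1 and at 5.55, 5.53, 5.69 and 4.11 in the wild type. The rml1 root lay within the rml1 shoot range, and the term of 2.03 did not pass (adjusted p = 0.108) but passed without rml1 shoot replicate 2 (adjusted p = 0.0088). With that array left out the list held 3 terms past the test in place of 2.

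Auxin transport and synthesis genes were more often shoot-high than root-high. Of 22, 2 were higher and 9 lower in the rml1 root, and 4 and 6 in the wild type root. The efflux carriers PIN3, PIN4 and PIN7 differed by -2.32, -2.63 and -1.78 in rml1 and by -2.1, -2.08 and -1.44 in the wild type, whereas PIN2, the carrier of the root epidermis, was higher in both roots, by 1.43 and 1.07. ABCB4, a root transporter of auxin, was at 6.31, 6.09 and 6.62 in the rml1 shoots and 8.22 in the rml1 root, against 3.61, 3.60, 3.63 and 6.41 in the wild type. Its level was thus higher in rml1 in both organs, and its term of -0.92 did not pass (adjusted p = 0.0713) but passed without rml1 shoot replicate 2 (adjusted p = 0.0362). YUC3, an enzyme of auxin synthesis, was at 4.48, 4.86, 4.05 and 4.05 in rml1 and at 5.74 in the wild type root (term -2.34, SE 0.40, adjusted p = 0.0103). PIN5, a carrier of the endoplasmic reticulum, and ABCB19, a carrier of downward auxin transport, had terms of -1.68 and -1.43. PID, a kinase that directs PIN proteins, had the positive term, 1.13 (SE 0.23).

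Strigolactones, carotenoid-derived hormones, are made in a short series of steps. CCD8, a dioxygenase of that series, was at 3.57, 3.43 and 3.32 in the rml1 shoots and 5.88 in the rml1 root, against 3.47, 3.53, 3.70 and 3.31 in the wild type (term 2.7, SE 0.22, adjusted p = 0.000963). The rml1 root alone lay apart from the other 7 arrays. CCD7, which acts just before CCD8, stayed between 1.63 and 2.08 on all arrays. These values lay below the lower quartile of each array (2.14 to 2.37), so they cannot show whether CCD7 follows CCD8. In rml1 D27, the isomerase of the entry step, was at 4.75, 4.73, 4.74 and 2.84. In the wild type D27 was at 6.45, 6.03, 5.95 and 2.59, so the roots lay close and the shoots further apart (term 1.67). MAX1, the P450 after CCD8, was at 6.12 and 6.51 in the roots (term -1.32). D14, the receptor, was at 8.81, 8.66, 8.96 and 9.87 in rml1 and at 8.62 in the wild type root (term 1.14, SE 0.22, adjusted p = 0.0151). Of the 16 genes of strigolactone and karrikin signalling, 3 were higher and 1 lower in the rml1 root, and 2 and 2 in the wild type root. Over all loci, 10.6% were higher and 9.49% lower in the rml1 root. The terms past the test were 5 positive and 1 negative, against 6.19% and 7.83% of all loci. The positive call of MAX2, the F-box protein of the pathway, did not pass in any fit without 1 shoot array.

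The loci with the largest positive terms were high in the rml1 root and near shoot levels in the wild type root. DIN2, a dark-inducible beta-glucosidase, was at 3.04, 3.02 and 3.48 in the rml1 shoots and 8.96 in the rml1 root (55-fold), against 2.59, 2.67, 2.72 and 2.77 in the wild type, a term of 5.67 (limma adjusted p = 0.000442). PRX52, a class III peroxidase, was at 2.57, 2.66, 2.36 and 7.93 in rml1 and at 2.41 in the wild type root (term 5.63). GSTU3, a tau-class glutathione S-transferase, was at 6.50 in the rml1 root and 1.76 in the wild type root, and ELI3-2, an elicitor-activated alcohol dehydrogenase, at 7.25 and 2.18. AT5G52390, AT2G30670 and AT2G18150 had terms of 5.56, 4.95 and 4.89. For these loci the rml1 root was the 1 array of 8 that stood apart. AT5G39580 was different, since its shoots also differed: 3.55, 3.58 and 3.06 in rml1 against 5.10, 5.95 and 5.20 in the wild type.

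The loci with the largest negative terms were, with 1 exception, high in the wild type root and closer to shoot levels in the rml1 root. AT3G59370 was at 2.73, 2.56, 2.56 and 3.18 in rml1 and at 8.68 in the wild type root (term -5.4). AT3G26460 was at 3.05 in the rml1 root and 7.71 in the wild type root, and AT3G18450 at 2.55 and 7.79. The annexin ANNAT7 was at 2.1, 1.81, 1.88 and 3.53 in rml1 and at 8.48 in the wild type root (term -4.74, adjusted p = 0.000575). AIR1, a gene first known as auxin-induced in root cultures, was at 5.66 in the rml1 root and 9.95 in the wild type root. The exception was AT1G73120, at 11.51, 11.27 and 11.65 in the rml1 shoots and 9.37 in the rml1 root, but at 6.59, 6.23, 5.98 and 8.80 in the wild type. Both roots lay close there and the shoots far apart.

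**Figure D5:**
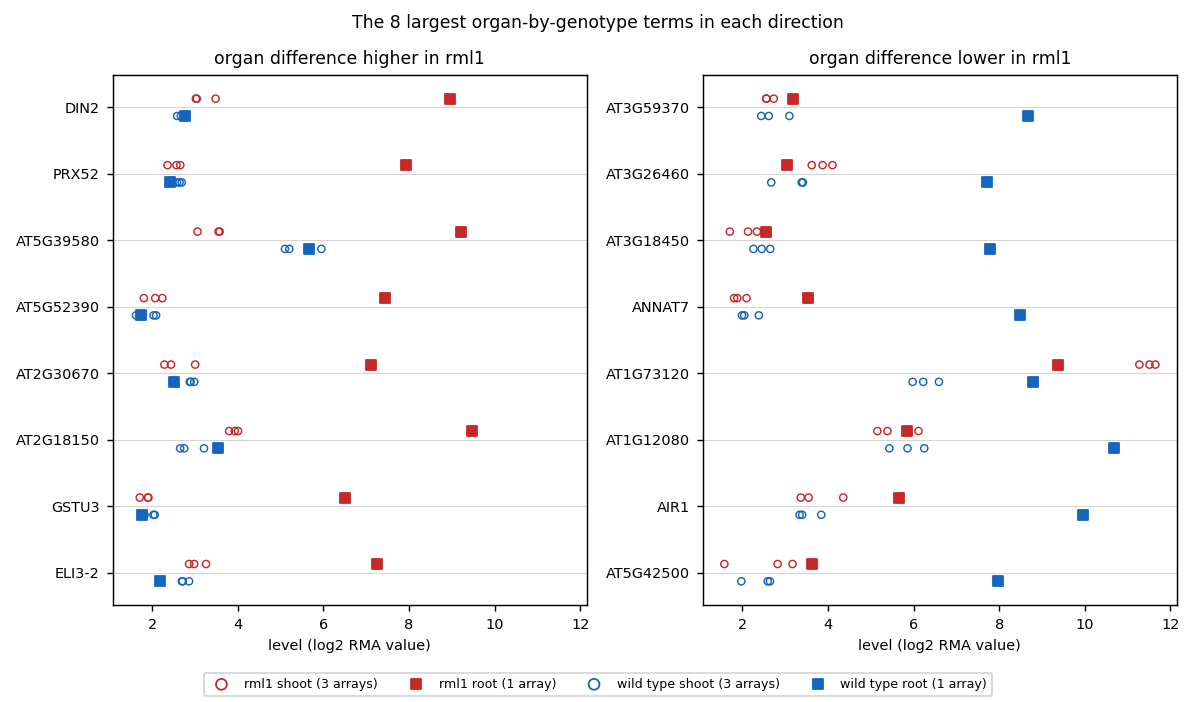
Levels (log2 RMA value) of the 8 loci with the largest organ-by-genotype term in each direction, with open circles for the 3 shoot arrays and squares for the root array of each genotype (red rml1, blue wild type). On the left the rml1 root stands alone at 6.50 or higher; on the right the wild type root stands alone except at AT1G73120, where the rml1 shoots are highest.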

How the data were processed

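RNA was hybridised to Affymetrix Agronomics tiling arrays, 1 sample per array. The authors deposited log2 values summarised by RMA, per the submitters' processing notes. Not given in the sources used here were the RMA version, the probe-to-gene map and the build of the genome. RMA can compress differences near both ends of its scale, which was not tested. Array medians lay between 3.84 and 3.98.

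The 30237 entries were averaged to 29920 loci, 208 of which had more than 1 entry. The table held 0 value columns without a sample. Symbols came from RefSeq (TAIR10.1), which held 29398 of the loci. Of 380 list members, 370 had an entry and the others were not analysed here. Close relatives can share probes: 85 entries had the same values as another entry, 0 of them named or in a list.

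Groups follow the sample labels. The organ-by-genotype term was fitted in R 4.3.3 with the limma package, version 3.58.1 (functions lmFit and eBayes, 4 group means, 8 arrays, two-sided, Benjamini-Hochberg over all loci, adjusted p under 0.05), and SE is the standard error of that term. P-values measure only the spread among the shoot arrays. On simulated data for this term over 29920 loci, 0, 14, 64 and 94% of 50 loci each with true terms of 0.5, 1, 2 and 4 log2 units were recovered, so smaller terms are often missed. The simulated root arrays were given the spread of the shoot arrays. These shares hold only under that assumption, which the real arrays cannot check.

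The comparison, the members of the lists and the rule for naming genes were chosen with earlier results of these data known. The rule named the 12 largest rml1 organ differences and the 8 largest terms in each direction among loci past their threshold with a group mean above 3.88, the median of all array values, and the extreme members of each list; any other list member could be named. Values of 1 list member are not reported here. Alternatives were other normalizations, thresholds, filters and eBayes options, a replicate block, single entries, and each shoot array left out in turn.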

Additional observations from a re-analysis of the deposited data

Results flagged for a closer look

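At 41 named loci the organ difference was not the same in both genotypes by limma's organ-by-genotype term (rml1 minus wild type, log2 units). Among loci high in the rml1 root, the term was 3.40 for AT1G30700, 3.80 for CYP82C2, 5.58 for AT5G39580, 5.67 for DIN2, 5.63 for PRX52, 5.56 for AT5G52390, 4.95 for AT2G30670, 4.89 for AT2G18150, 4.87 for GSTU3 and 4.80 for ELI3-2. Other positive terms at root-high loci were 4.14 for NPF7.2, 2.7 for CCD8, 1.97 for KNAT2 and 0.74 for GPAT6.

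At shoot-high loci the term was 1.77 for CA2, 1.95 for GASA6, 1.1 for FBA1, 1.15 for PSBS and 1.77 for SBPASE. It was 1.06 for YAB5 and 1.67 for D27. Each of these was a smaller organ difference in rml1. At D27 the roots lay close (2.84 in rml1 and 2.59 in the wild type) and the shoots further apart. AT5G57760 had a term of -1.21, a larger organ difference in rml1.

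Negative terms at loci high in the wild type root were -5.4 for AT3G59370, -5.37 for AT3G26460, -4.85 for AT3G18450, -4.74 for ANNAT7, -4.64 for AT1G73120, -4.53 for AT1G12080, -4.52 for AIR1 and -4.47 for AT5G42500. Among list members high in the wild type root they were -1.68 for MYB88, -2.47 for CER4, -3.61 for CASP5, -2.26 for LAX3, -2.39 for IRX9, -2.95 for CYP82C4 and -2.34 for YUC3. At list members not past the 2-fold rule in the wild type root, the term was -3.05 for FAR1, -1.58 for BAM3, -2.02 for KNOLLE and -2.22 for CDKB2;1. These loci were named partly for the size of their term. No group holds 4 or more arrays, so single arrays were not examined for outlying values.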

How the results depend on the processing

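With a threshold of 2 log2 units, 1180 loci were higher and 1262 lower in the rml1 root, as fewer loci reach a higher threshold. Spearman's correlation of the organ differences was 0.67 where Pearson's r was 0.81, a difference whose cause was not tested. With 1 shoot array left out, 3154 to 3285 loci were higher and 2864 to 2881 lower in the rml1 root, 1257 to 1784 terms were higher and 1715 to 2262 lower in rml1, and r was 0.81 in each such fit. The lowest numbers of terms came without rml1 shoot replicate 1. Under limma's adjusted p, other normalizations, the filter on low loci, the median of the shoots and single entries these counts kept within 1.5 times, and 0 of the recomputed results reversed. Shoot arrays of both genotypes share replicate numbers. The deviations of same-numbered arrays from their group means correlated at -0.03, -0.00 and -0.10, and those of arrays with unlike numbers at -0.06 to 0.09. With 3 arrays per group these values cannot decide whether same-numbered pools were handled together. With the replicate number as a random block (consensus correlation -0.08), 1805 terms were higher and 2286 lower. Among the named loci, 234 of 234 recomputed organ differences kept their side of the threshold, while for the term 608 did, 10 passed only in the alternative (DOX1, GLP4, AT5G48490, AT3G05730, TMO7, GGCT2;1 and ABCB4 once each and GRF1 under 2 left-out arrays, GR1 after quantile normalization) and 6, all of GPAT6, passed only with all arrays. Of the list medians and counts, 212 moved by less than the shoot spread or 1.5 times and 16 by more. Of the 4195 terms past the test, 1489 (35.5%) were lost in at least 1 fit without a shoot array. The root side rests on 1 array per genotype, and no alternative can replace the missing root replicates.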
